A study of Homo sapiens with 8 samples.

Results

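FLI1 occupancy was examined by ChIP-Seq at 7 genes that encode blood stem cell factors, LYL1, TAL1, LMO2, GATA2, RUNX1, ERG and MEIS1, out of 20163 protein coding genes annotated on GRCh37. The genes were taken as partner factors of FLI1 in blood stem cells, and they were chosen by measured values of these same peak lists, the -log10 q of their best peaks, so their values are a description and carry no test. For each gene the peaks inside the gene and within 10 kb of it were collected, and the best peak by -log10 q within 3 kb of any transcription start site (TSS) was read. The cells were OCI-Ly1 and VAL, both established human lymphoma lines with no treatment in the labels, of the germinal center B-cell (GCB) type of diffuse large B-cell lymphoma (DLBCL). Each line had 2 FLI1 libraries, pulled down with a rabbit polyclonal anti-FLI1 antibody, and 2 samples of input DNA, which were not analysed here. The eluates of several parallel pull-downs were combined before sequencing, and the labels do not say whether the replicates came from separate cultures. The lists hold no expression values, so the labelled cell type was not checked against marker genes, and whether any of the 7 genes was expressed was not measured.

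FLI1 belongs to the ETS family, whose DNA-binding domain recognises GGAA, with CC before it and A or G after it in the preferred FLI1 site. In blood stem and progenitor cells FLI1 and ERG, another ETS protein, are known to share regulatory elements with the basic helix-loop-helix (bHLH) proteins TAL1 and LYL1, the bridging protein LMO2, the zinc finger protein GATA2 and the runt-domain protein RUNX1. The bHLH proteins pair with E proteins and bind the E-box CANNTG. LMO2 binds no DNA and joins them to GATA factors, in a complex that also holds LDB1. MEIS1 is a TALE homeodomain protein that works with PBX and HOXA proteins. In the B-cell lineage LMO2 is known as a marker of germinal center cells.

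In each list a peak has a summit (the position of its highest pileup), a fold enrichment over the local background, and a -log10 q, where a higher value means a smaller adjusted p-value as the peak caller gave it. A peak was said to pass at a -log10 q of 3 or more, which is a false discovery rate of 0.001. Replicate 2 of OCI-Ly1 is called OCI-Ly1-R2, and replicates 1 and 2 of VAL are called VAL-R1 and VAL-R2. The pass level left 5354 of 1107379 listed peaks in OCI-Ly1-R2, 973 of 237178 in VAL-R1 and 6474 of 986629 in VAL-R2. Among passing peaks the median -log10 q was 4.99, 4.84 and 4.59 in the same order. The list of OCI-Ly1 replicate 1 had 37 intervals, of which 33 were longer than 1 Mb. Over the 7 genes those intervals were 27.7 to 243 Mb long, with a -log10 q of 3.57 for the interval over MEIS1 and 1.06 for the others, so that library gave no local value for any gene and OCI-Ly1 rested on 1 library. The total number of reads per library is unknown, so values of different libraries are given side by side and no difference in occupancy is read from them.

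The stretches of genome that carry the passing peaks of these genes are given here, read from the plus strand of GRCh37. Exact matches to the FLI1 recognition letters were near some of the summits and not near others, and this did not follow the strength of the peaks. Capitals mark each GGAA on either strand (GGAA or TTCC), the full CCGGAAA or CCGGAAG where it was found on either strand, and, in the stretch upstream of LYL1 only, the CANNTG match. The stretch upstream of LYL1 runs from 50 bp before the lowest to 50 bp after the highest of the 3 libraries' summits (chr19:13215228-13215351), the RUNX1 stretch in VAL-R2 was limited to 30 bases (chr21:36260884-36260913), and the others cover 50 bp to each side of a summit (chr19:13210360-13210460, chr21:36261066-36261166 and chr2:66805011-66805111).
LYL1 upstream site, 3 libraries: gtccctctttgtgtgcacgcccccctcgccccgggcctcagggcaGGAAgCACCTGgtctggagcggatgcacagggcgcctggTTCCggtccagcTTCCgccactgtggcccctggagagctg
LYL1 exon site, OCI-Ly1-R2: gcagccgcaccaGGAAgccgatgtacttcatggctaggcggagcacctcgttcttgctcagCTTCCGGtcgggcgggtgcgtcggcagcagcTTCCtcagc
RUNX1 site, OCI-Ly1-R2: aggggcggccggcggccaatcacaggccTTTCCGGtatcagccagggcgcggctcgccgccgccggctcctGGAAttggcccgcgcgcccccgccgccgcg
RUNX1 site, VAL-R2: gagccCCGGAAAgaagtgcctggcggcgca
MEIS1 site, VAL-R2: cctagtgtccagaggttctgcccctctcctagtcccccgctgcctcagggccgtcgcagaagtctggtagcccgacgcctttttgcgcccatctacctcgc

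A passing promoter peak, with its centre within 3 kb of a TSS, was found for LYL1 and RUNX1 in OCI-Ly1-R2, for LYL1 alone in VAL-R1, and for LYL1 and RUNX1 in VAL-R2. The same rule was met by 19.0% of the 20163 protein coding genes in OCI-Ly1-R2, by 3.14% in VAL-R1 and by 20.8% in VAL-R2. Over the 3 libraries 2 of 7 genes (28.6%) had a passing promoter peak in at least 1, beside 27.4% of all protein coding genes, so the share of the group was near that of all genes. LYL1 passed in each of the 3 libraries, beside 2.73% of protein coding genes. When peaks anywhere in the gene or within 10 kb of it were counted, 2 of 7 genes had a passing peak in OCI-Ly1-R2 (28.4% of all genes), 1 in VAL-R1 (5.49% of all genes) and 3 in VAL-R2 (31.9% of all genes), where MEIS1 was the addition. Over the 3 libraries that made 3 of 7, beside 41.3% of all genes. The 3 genes held 7 passing peaks in all, 4 of them at LYL1, 2 at RUNX1 and 1 at MEIS1. TAL1, LMO2, GATA2 and ERG had no passing peak in any library.

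**Figure D1:**
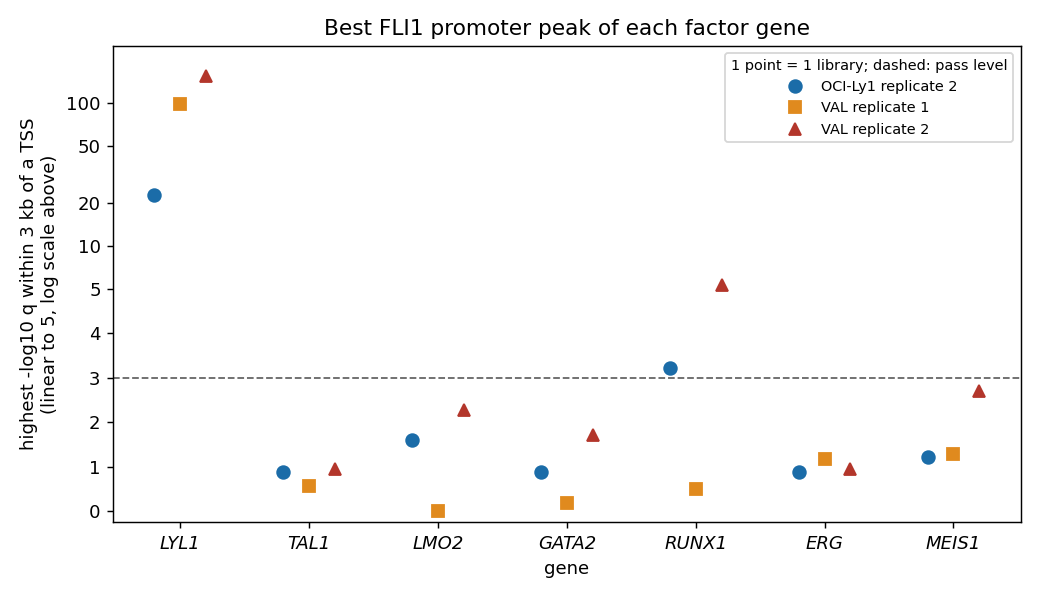
Highest -log10 q of a listed FLI1 peak within 3 kb of a TSS (vertical axis, linear to 5 and logarithmic above) for each of the 7 genes in the 3 libraries, 1 point per library, with the pass level of 3 dashed. The LYL1 points lie at 22.6, 98.0 and 155, RUNX1 lies above the line in OCI-Ly1-R2 and VAL-R2, and the points of the other 5 genes lie below it.

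LYL1 encodes a bHLH protein closely related to TAL1. The gene lies on the minus strand of chromosome 19 (chr19:13209847-13213975, 4.13 kb) and has 3 annotated TSS between 13213538 and 13213975. Its strongest peak was intergenic, upstream of the outermost TSS. In OCI-Ly1-R2 it spanned 13214391 to 13217021, with an enrichment of 13.7-fold at a -log10 q of 22.6. In VAL-R1 it spanned 13215077 to 13215466, with an enrichment of 28.7-fold at a -log10 q of 98.0. In VAL-R2 it spanned 13214667 to 13216558, with an enrichment of 60.1-fold at a -log10 q of 155. All 3 values were well above the pass level.

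The position of the peak hardly moved between libraries. The summits were at 13215279 in OCI-Ly1-R2, 13215278 in VAL-R1 and 13215301 in VAL-R2. The 2 cell lines thus placed it 1 and 22 bp apart, and the VAL replicates placed it 23 bp apart. The summits were 1304, 1303 and 1326 bp upstream of the TSS at 13213975. The intervals were wider than this agreement, at 2631, 390 and 1892 bp, and their centres were 1731, 1296 and 1637 bp from that TSS, so all 3 peaks counted as promoter peaks within 3 kb and none did within 1 kb. On the other side of the site the next gene, TRMT1, a transfer RNA methyltransferase gene, ends with its 3′ part at 13215716, which was 437, 438 and 415 bp from the summits. The peak interval ran over 1306 bases of TRMT1 in OCI-Ly1-R2 and over 843 bases in VAL-R2, and it stayed outside the gene in VAL-R1. The closest TSS of TRMT1 was 5.18, 5.18 and 5.16 kb from the summits, so LYL1 had the nearest TSS in every library.

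The reads behind these values were inferred from each peak's fold enrichment and p-value. The pileup at the summit was 24 reads in OCI-Ly1-R2 (95% exact Poisson interval 15.4 to 35.7), 87 in VAL-R1 (69.7 to 107) and 86 in VAL-R2 (68.8 to 106), and these intervals cover counting error only. The local background that belongs to them was 0.819, 2.07 and 0.448 reads. The fold is the pileup plus 1 over the background plus 1 in this model. The VAL replicates had nearly the same number of reads at the summit, and their folds of 28.7 and 60.1 came with backgrounds of 2.07 and 0.448. Since the depths of the libraries are unknown, a stronger occupancy in VAL than in OCI-Ly1 cannot be told apart from a deeper or cleaner library.

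**Figure D2:**
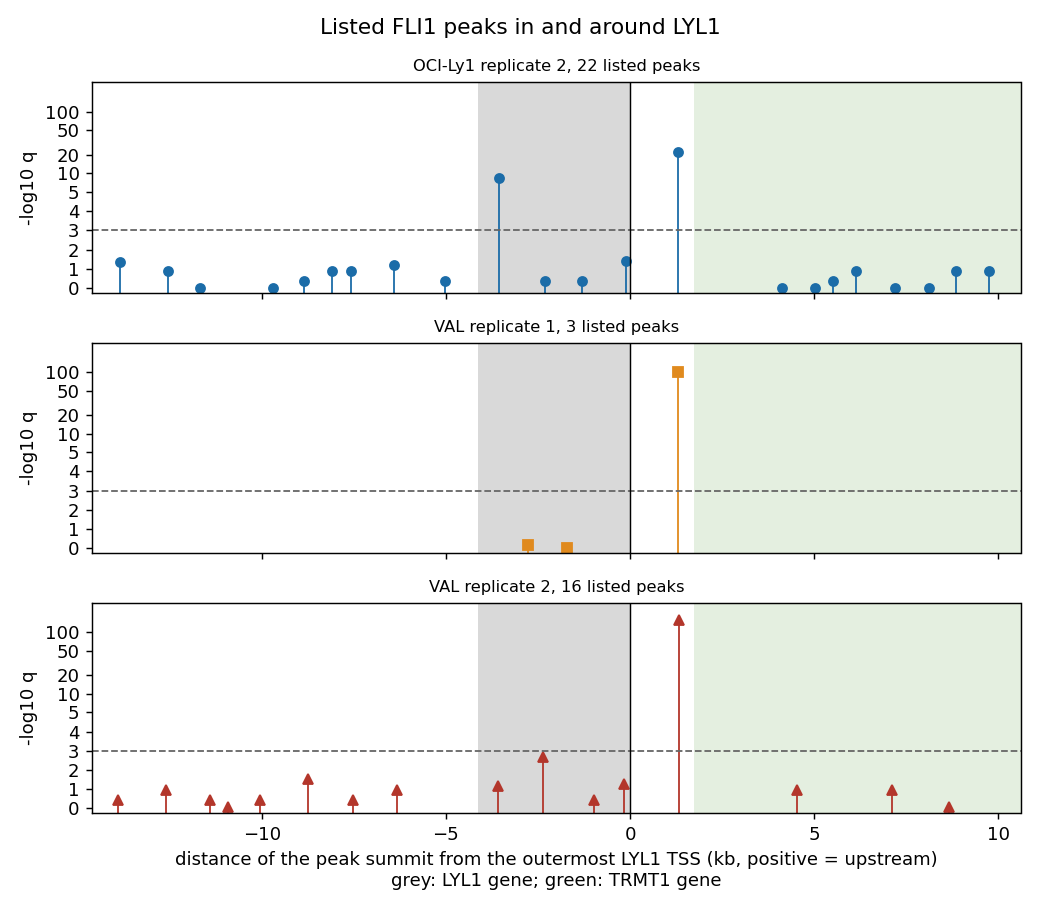
Listed FLI1 peaks in LYL1 and 10 kb to each side, as the -log10 q (vertical axis, linear to 5 and logarithmic above, pass level of 3 dashed) against the distance of the summit from the outermost TSS in kb, positive upstream, in 1 panel per library, with LYL1 shaded grey and TRMT1 green. The tall peak upstream of the TSS is at the same place in the 3 panels, and the other passing peak, inside the gene, is in OCI-Ly1-R2.

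Within each list the rank of the site differed. It was the highest peak of all in VAL-R1, the one ranked 2 in VAL-R2, and the one ranked 259 in OCI-Ly1-R2. Among genes ordered by their best promoter peak, 0, 2 and 245 protein coding genes had a higher -log10 q than LYL1 in these libraries. For comparison, 99% of the passing peaks of a list had a -log10 q of at most 43.4 to 51.4, depending on the library. The OCI-Ly1 value of 22.6 was above the 90th percentile of its list, 15.7, and below the 99th.

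**Figure D3:**
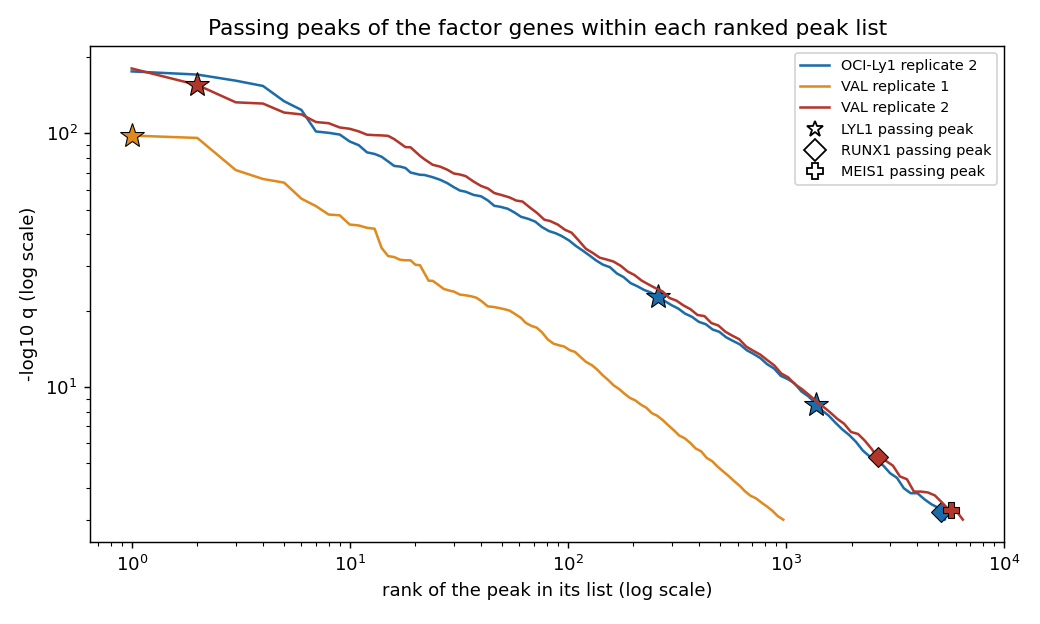
The -log10 q of the passing peaks of each library against their rank in the list (both axes logarithmic), drawn as a line per library, with the passing peaks of LYL1 (stars), RUNX1 (diamonds) and MEIS1 (plus sign) on it. The LYL1 upstream peak is at ranks 1 and 2 in the VAL libraries and 259 in OCI-Ly1-R2. The RUNX1 peaks are at rank 5121 in OCI-Ly1-R2 and 2636 in VAL-R2, and the MEIS1 peak is at rank 5726 in VAL-R2.

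The sequence under the LYL1 site did not contain CCGGAAA or CCGGAAG within 50 bp of any of the 3 summits, nor within 100 bp. These letters were found within 50 bp of the summit in 35.1% of all passing peaks of OCI-Ly1-R2, 36.1% of VAL-R1 and 28.4% of VAL-R2. Of the 100 peaks with the highest -log10 q in each list, 66, 48 and 47 had them, and 34, 52 and 53 were without them. In the VAL lists the LYL1 site was itself among those without them. In OCI-Ly1-R2, at rank 259, it was outside the 100. The site held 3 copies of GGAA, the core that 79.3%, 78.9% and 76.8% of all passing peaks had at least 1 of. The first copy was on the plus strand at 13215273 to 13215276 and the others on the minus strand at 13215312 to 13215315 and 13215324 to 13215327. At least 3 copies within the same window were found in 24.0%, 29.0% and 21.3% of the passing peaks. A longer FLI1 site, CCGGAAGT, was not in the window either, and was in 13.4%, 17.6% and 10.7% of the passing peaks.

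An E-box, CANNTG, the kind of site bound by LYL1 and TAL1 themselves, was at 13215278 to 13215283, with 1 base between it and the first GGAA. In OCI-Ly1-R2 and VAL-R1 the summit fell on this match, and in VAL-R2 it was 20.5 bp from the centre of the match. CANNTG was within 50 bp of the summit in 31.0%, 35.9% and 35.6% of all passing peaks. The arrangement of GGAA, 1 base and CANNTG, which was looked for after it was seen at LYL1, was found in 127 of 5354 passing peaks of OCI-Ly1-R2 (2.37%), 70 of 973 of VAL-R1 (7.19%) and 232 of 6474 of VAL-R2 (3.58%). Among the 100 highest peaks of each list it was found in 7, 16 and 15, and the VAL counts include the LYL1 site itself. No GATA letters (AGATAA or TGATAA) and no RUNX letters (TGTGGT) were in the LYL1 window, and they were rare over all passing peaks, at 1.29%, 1.44% and 1.73% for the former and 5.12%, 5.34% and 5.45% for the latter. All motifs were searched on both strands, GGAA is contained in each match to the longer FLI1 letters, and a match is a description of the letters and not of a bound protein.

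A passing peak inside LYL1 was listed in OCI-Ly1-R2 at 13210132 to 13211013. It had an enrichment of 8.18-fold, a -log10 q of 8.53 and 10 inferred reads (4.8 to 18.4), and ranked 1377. Its summit at 13210410 lay in a coding exon, 3128 bp downstream of the TSS at 13213538, while its centre was 2966 bp from that TSS and so just inside the 3 kb. This window held CCGGAAG at 13210421 to 13210427 on the minus strand, 14 bp from the summit, and 3 GGAA. In VAL-R2 an overlapping peak was listed with its summit 15 bp away, but its -log10 q was 1.18 with 5 reads. VAL-R1 listed no overlapping peak. Another peak in LYL1, in an intron at 13211489 to 13212342, reached 2.69 in VAL-R2 and did not pass. In all, 22, 3 and 16 peaks were listed in and around LYL1, or 9.12, 1.24 and 6.63 per 10 kb, against medians over all protein coding genes of 4.88, 0.992 and 4.55. Chromosome 19 as a whole was densely listed, with 5.4, 1.14 and 5.32 peaks per 10 kb.

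RUNX1 encodes the runt-domain factor that with its partner CBFB is needed for the emergence of blood stem cells, and it is transcribed from a distal and a proximal promoter. The gene lies on the minus strand of chromosome 21 (chr21:36160098-37376965, 1220 kb) with 16 annotated TSS, and its passing peaks were both at the proximal promoter. In OCI-Ly1-R2 the peak at 36260629 to 36263074 had an enrichment of 5.15-fold at a -log10 q of 3.22, with 6 inferred reads (2.2 to 13.1). In VAL-R2 the peak at 36260795 to 36262345 had an enrichment of 6.43-fold at a -log10 q of 5.32, with 8 inferred reads (3.45 to 15.8). In VAL-R1 the best peak there, at 36261811 to 36262079, had a -log10 q of 0.495 with 8 reads and did not pass. The first of these values was just above the pass level, and the counting intervals of the passing peaks overlapped.

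The summits of the passing RUNX1 peaks were 207 bp apart and on either side of the TSS at 36260987. In OCI-Ly1-R2 the summit at 36261116 was 129 bp upstream of that TSS, within an intron of the longer transcripts. In VAL-R2 the summit at 36260909 was 78 bp downstream of it, in an untranslated exon part. Each window had its own match to the FLI1 letters. In OCI-Ly1-R2 CCGGAAA was on the minus strand at 36261094 to 36261100, and in VAL-R2 it was on the plus strand at 36260889 to 36260895. So the 2 windows held different matches, and the peaks overlapped without sharing a summit to within 100 bp.

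Elsewhere in RUNX1 no peak passed, although 496, 114 and 435 peaks were listed over the gene and its flanks. At the distal promoter, with 5 TSS between 36421567 and 36421641, the best -log10 q was 0.74 in OCI-Ly1-R2, 0.0 in VAL-R1 and 0.435 in VAL-R2. The best peaks outside the proximal promoter were intronic, with a -log10 q of 2.62 at the summit 36403551 in OCI-Ly1-R2, 2.01 at 36585098 in VAL-R1 and 2.70 at 36706730 in VAL-R2. They were at 3 different places. The listed density of 4.01, 0.922 and 3.52 peaks per 10 kb was slightly below the medians over all genes. It was above that of chromosome 21 as a whole, 2.98, 0.633 and 2.63 per 10 kb.

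**Figure D4:**
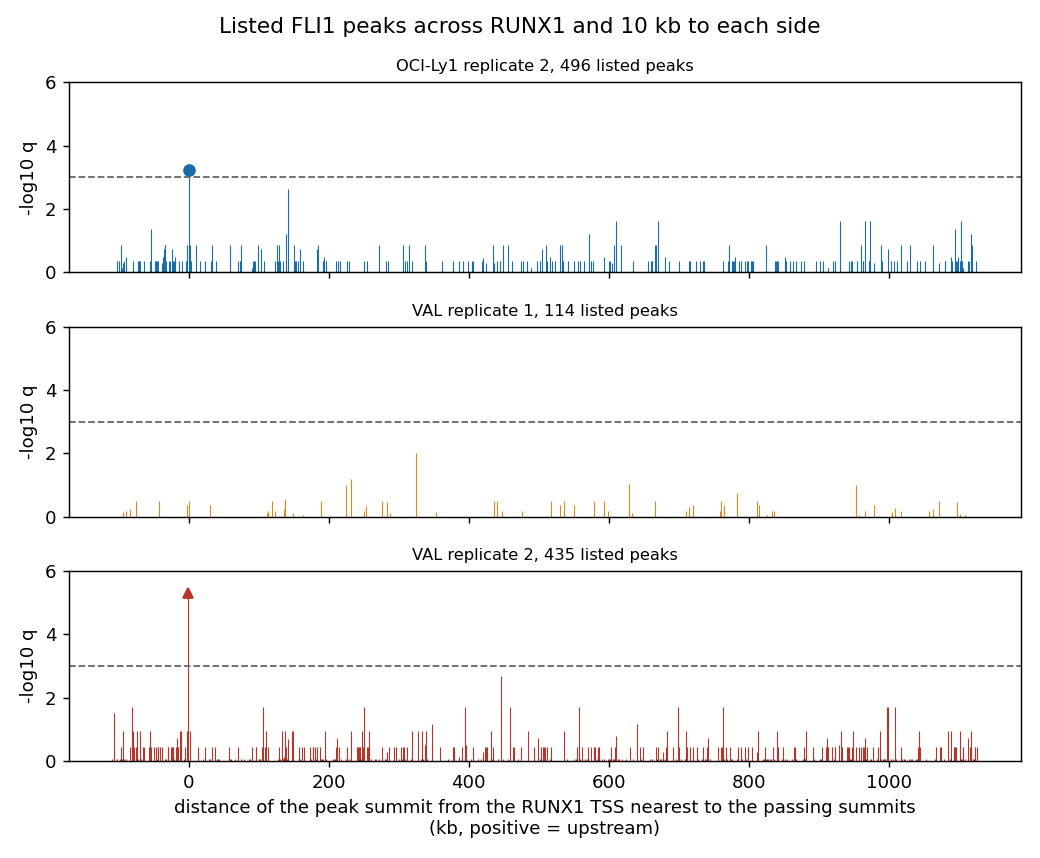
Listed FLI1 peaks across RUNX1 and 10 kb to each side, as the -log10 q (vertical axis, pass level of 3 dashed) against the distance of the summit in kb from the TSS at the proximal promoter, positive upstream, in 1 panel per library, with passing peaks marked by a symbol. OCI-Ly1-R2 (3.22) and VAL-R2 (5.32) have a passing peak at the proximal promoter, VAL-R1 has none, and no other peak of the 496, 114 and 435 listed crosses the line.

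MEIS1 encodes the homeodomain cofactor that supports stem cell self-renewal together with HOXA9 and PBX proteins. The gene lies on the plus strand of chromosome 2 (chr2:66660584-66801001, 140 kb, 17 TSS). Its passing peak was found in VAL-R2, past the 3′ end of the gene at 66804953 to 66805394, with an enrichment of 5.15-fold, a -log10 q of 3.27 and 6 inferred reads (2.2 to 13.1). The summit at 66805061 was in an intron of LINC01798, a long non-coding RNA gene whose TSS, 4011 bp from the centre of the peak, was the nearest. OCI-Ly1-R2 had a listed peak there with a -log10 q of 1.36, 4 reads and a summit 378 bp away, and VAL-R1 had none. The window of 50 bp to each side of the summit contained no GGAA at all. At the promoters of MEIS1 the best -log10 q was 1.22 in OCI-Ly1-R2, 1.30 in VAL-R1 and 2.70 in VAL-R2, the last for a peak at 66673497 to 66673792, so none of the 3 passed.

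ERG, the ETS paralog of FLI1, came closest to the pass level among the genes without a passing peak. The gene lies on the minus strand of chromosome 21 (chr21:39751949-40033704, 282 kb, 11 TSS). Its best peak reached a -log10 q of 2.62 in OCI-Ly1-R2 (summit 40010113), 1.18 in VAL-R1 (summit 40032589) and 2.70 in VAL-R2 (summit 39773656). The first and the last were in introns and far from each other. In VAL-R2 the window held CCGGAAA or CCGGAAG, on the minus strand at 39773665 to 39773671. At the ERG promoters the best values were 0.873, 1.18 and 0.952, of which the VAL-R1 value had its summit 2 bp from the TSS at 40032591. The nearest passing peak outside the gene was 652 kb away in all 3 libraries, at the TSS of BRWD1.

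LMO2 encodes the bridging protein of the complex. The gene lies on the minus strand of chromosome 11 (chr11:33880122-33913623, 33.5 kb, 6 TSS). Its best promoter peak had a -log10 q of 1.61 in OCI-Ly1-R2, 0.0 in VAL-R1 and 2.27 in VAL-R2. The OCI-Ly1 and the VAL-R2 peaks were both at the middle group of 4 TSS (33891082 to 33892075), with summits 18 and 19 bp from a TSS, at 33891344 and 33892094, and 4 and 5 reads. No passing peak was within 50 kb of the gene, and the nearest in OCI-Ly1-R2 and VAL-R2 was at CAPRIN1, 159 kb away.

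TAL1, the bHLH factor required for blood specification, and GATA2, the zinc finger factor of stem and progenitor cells, had no peak near the pass level. TAL1 lies on the minus strand of chromosome 1 (chr1:47681962-47697897, 15.9 kb, 6 TSS), and its best promoter values were 0.873 in OCI-Ly1-R2, 0.556 in VAL-R1 and 0.952 in VAL-R2. GATA2 lies on the minus strand of chromosome 3 (chr3:128198270-128212044, 13.8 kb, 10 TSS), and its best promoter values were 0.873, 0.183 and 1.71. Over the protein coding genes with a listed promoter peak (98.9%, 74.9% and 98.6% of all) the median of the best promoter -log10 q was 1.22, 0.285 and 1.67, so TAL1 lay below this median in OCI-Ly1-R2 and VAL-R2 and above it in VAL-R1. GATA2 lay below this median in OCI-Ly1-R2 and VAL-R1 and slightly above it in VAL-R2. The nearest passing peak outside the 10 kb was 204 to 974 kb from TAL1 and 74.4 to 668 kb from GATA2. A missing peak means that none passed in these lists, whose depth is unknown, and does not show that FLI1 was absent.

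The order of the genes by their best promoter peak was not the same in each library. LYL1 was highest in all 3 and RUNX1 followed in OCI-Ly1-R2 and VAL-R2. In VAL-R1 MEIS1 (1.30) and ERG (1.18) came next, and RUNX1 (0.495) was below TAL1 (0.556). TAL1, GATA2 and ERG had the same value of 0.873 in OCI-Ly1-R2, and TAL1 and ERG had the same value of 0.952 in VAL-R2. In these lists peaks of few reads share a small set of q values, so these low values separate the genes poorly.

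The FLI1 letters CCGGAAA or CCGGAAG were present in and around every one of the 7 genes, with 6 matches at LYL1, 3 at TAL1, 6 at LMO2, 6 at GATA2, 50 at RUNX1, 14 at ERG and 8 at MEIS1. Of these, 2 at LYL1 and 4 at RUNX1 were inside a passing peak interval in OCI-Ly1-R2, and 1 at LYL1 and 3 at RUNX1 in VAL-R2. In VAL-R1 none was, and no match at the other 5 genes was inside a passing peak in any library. At LYL1 the match inside the upstream interval, at 13216137 to 13216143, was 861 bp from the summit in OCI-Ly1-R2 and 839 bp in VAL-R2. Of the 7 passing peaks of the group, 3 had the letters within 50 bp of the summit, the LYL1 exon peak and both RUNX1 peaks. By the same rule 35.1% of all passing peaks of OCI-Ly1-R2, 36.1% of VAL-R1 and 28.4% of VAL-R2 had them. The promoter sequences that follow are a different set with a different window. In the RefSeq promoter sequences (GRCh38.p14, 250 bases before to 50 after a start), 13.4% of 35116 promoters held the letters. Among the genes listed there RUNX1 and MEIS1 held them in their 1 promoter each, and LYL1 (1 promoter), TAL1 (2), GATA2 (2) and ERG (4) did not. LMO2 was not matched. The answer depended on the starts and window used. Within 250 bp to either side of the GRCh37 TSS used for the peaks, LYL1, TAL1 and GATA2 had 1 match each. RUNX1 had 3, MEIS1 had 2, and LMO2 and ERG had 0. The LYL1 match, at 13214015 to 13214021, was in no passing peak.

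The companions of these factors were described by role from a list of 42 genes. A passing promoter peak was found for 4 of them in OCI-Ly1-R2, 0 in VAL-R1 and 9 in VAL-R2, where 19.0%, 3.14% and 20.8% of all protein coding genes had 1, and for 10 (23.8%) in at least 1 library, beside 27.4% of all protein coding genes. Without VAL-R2 the count was 4. Within 10 kb of the gene or inside it, the numbers were 7, 1 and 11, beside 28.4%, 5.49% and 31.9% of all genes, and 12 of 42 in at least 1 library, beside 41.3% of all genes. By the promoter rule, of the 11 partner proteins CBFB, LDB1, PBX2 and TCF3 passed, of the 14 paralogs FLI1 and MEIS2, of the 4 corepressors CBFA2T3, and of the 13 other stem and progenitor genes ETV6, GFI1 and GFI1B. By the same rule GFI1, GFI1B and MEIS2 (7.14% of the 42) passed in both cell lines, through OCI-Ly1-R2 and VAL-R2. That share was not computed for all protein coding genes, so whether it is high or low is not known. No companion passed in all 3 libraries by this rule, beside 2.73% of all protein coding genes.

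GFI1, a transcriptional repressor that restrains the proliferation of blood stem cells, had a -log10 q of 9.03 in OCI-Ly1-R2 and 4.59 in VAL-R2, with summits 3 and 43 bp from its TSS at 92952482 on chromosome 1, and no listed peak in VAL-R1. Its paralog GFI1B had values of 5.97, 0.757 and 6.15 in OCI-Ly1-R2, VAL-R1 and VAL-R2, and the TSS closest to each of these peaks was that of the neighbouring TSC1. MEIS2, the paralog of MEIS1, had values of 6.15, 1.18 and 3.87 in the same order, and its passing peaks overlapped on chromosome 15. Their summits were not shared, at 37393467 in OCI-Ly1-R2 and 37392631 in VAL-R2. GFI1B no longer counted when a peak was given to the closest TSS only. The same held for the partner protein PBX2. Its passing peak, in VAL-R2 at a -log10 q of 3.74, was centred 36 bp from the TSS of GPSM3 and 2952 bp from its own.

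Among the partner proteins, the highest promoter value was that of TCF3, which encodes the E proteins that pair with TAL1 and LYL1, at 5.80 in OCI-Ly1-R2, 0.0 in VAL-R1 and 1.54 in VAL-R2. CBFA2T3, the corepressor of the ETO family found in complexes with TAL1, had the highest promoter value of all companions, 10.5 in VAL-R2, against 2.20 in OCI-Ly1-R2 and 0.613 in VAL-R1. Inside the gene or within 10 kb its best peak was 3.62 in OCI-Ly1-R2, 8.95 in VAL-R1 and 26.3 in VAL-R2, so by that rule it passed in all 3 libraries. This stretch of 122 kb held 1, 1 and 4 passing peaks, and whether they lay at the same place was not checked. The share of all protein coding genes that passed in all 3 libraries by that rule was not computed. FLI1 itself, named after its values were seen because it is the precipitated protein, had promoter values of 1.80, 0.0404 and 3.48.

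**Figure D5:**
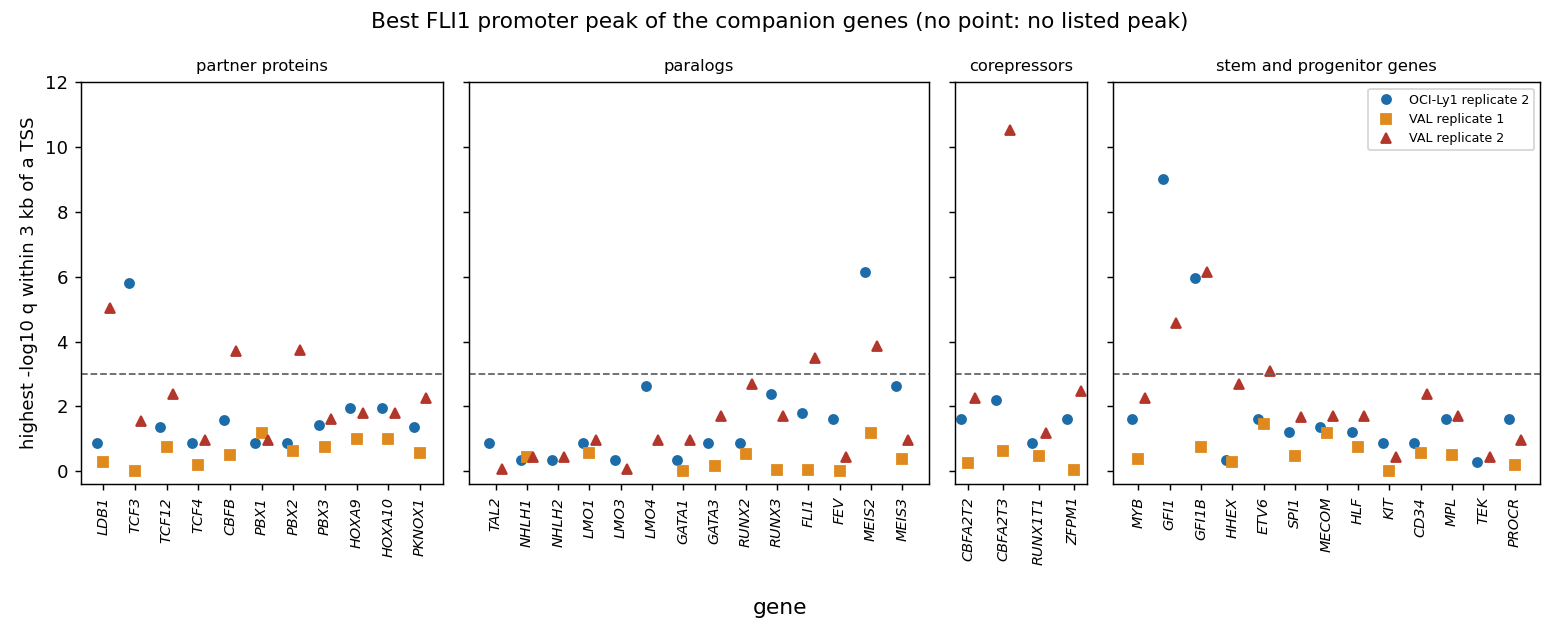
Highest -log10 q of a listed FLI1 peak within 3 kb of a TSS (vertical axis, linear, pass level of 3 dashed) for the 42 companion genes in 4 panels by role, 1 point per library, with no point where a library listed no peak. The points above the line belong to 10 genes, all from OCI-Ly1-R2 or VAL-R2, the highest being CBFA2T3 at 10.5.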

How the data were processed

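FLI1 ChIP-Seq of OCI-Ly1 and VAL was analysed from 4 deposited peak lists, 1 per library, in the 10-column format of MACS2. The study's methods name bowtie2 on GRCh37, SAMtools (unique reads, duplicates removed) and HOMER at a false discovery rate of 0.001, while the submitters' processing notes name CASAVA 1.4, BWA and hg19; the caller, control and settings of these lists are not given in the sources used here. Every listed peak has a p-value of at most 0.05. The deposited fold enrichment is a linear ratio of pileup to local background at the summit, made by the authors' caller, and 1 was taken to be added to both, as MACS2 does. The deposited -log10 p and -log10 q were made for each summit by the same caller. Because the depths and the control are unknown, values were read within each list.

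Peaks with a -log10 q of 3 or more were kept. The best peak of every protein coding gene (GENCODE 44 lifted to GRCh37) was taken by peak centre within 3 kb of any TSS, and by overlap with the gene and 10 kb to each side. Reads were inferred by matching fold and p-value to a Poisson model. The step was tested on data simulated from that same model. This checks the arithmetic, and it cannot show that the deposited lists follow the model. Motifs were searched 50 bp to each side of the summit on both strands of GRCh37. Scripts used Python 3.11.15 with pandas 2.3.3, numpy 2.4.6 and scipy 1.17.1. No comparison of conditions exists, OCI-Ly1 has 1 usable library, and no test was run. The genes, the companion list and the rules were chosen with earlier results of these data known. All 7 genes are named with every passing peak and their best promoter peak, and companions with values where they passed in at least 2 libraries or, failing that, led their role. The authors' input DNA was not used here.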

Additional observations from a re-analysis of the deposited data

How the results depend on the processing

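Of 79 recomputed counts, 43 stayed within 1.5 times the reported count and 36 did not. By the main rule, with peaks joined into 1 site where they overlapped, 1 site of the 7 genes passed in all 3 libraries and 2 passed in both lines. The share of all passing sites shared in this way was not computed. At a -log10 q of 2, 4 genes had a promoter peak, 5 a peak within 10 kb, with 15 peaks, and 21 companions passed. At 5, 1 site was shared by both lines and 6 companions passed; a fold of 6 as well gave the same 1 and 6. With all listed peaks the counts were 7 genes by either rule, 1672 peaks, 45 sites in all 3 libraries, 294 in both lines, 19 peaks with the FLI1 letters and 42 companions. With the 973 highest peaks of each list, LYL1 alone was left by either rule, with 3 peaks, 1 site shared by both lines, 0 with the letters and 0 companions. Within 1 kb of a TSS 1 gene, RUNX1, was left. The gene body alone gave 3 peaks, 0 sites in all 3 libraries and 1 in both lines. Overlap of 50% of both peaks gave 0 sites in all 3 libraries, summits within 100 bp gave 1 in both lines, and sites passing in 1 library and listed in the others came to 2 and 4. CCGGAAGT was at 0 and GGAA at 6 of the 7 peaks. Leaving out 1 library in turn gave 2 genes by promoter, 2 to 3 within 10 kb, 4 to 6 peaks, 1 to 2 sites in both lines, 1 to 3 peaks with the letters and 4 to 10 companions. Without VAL-R2 companions fell to 4, peaks to 4 and sites in both lines to 1, and without OCI-Ly1-R2 peaks came to 4, peaks with the letters to 1, and sites in both lines had no value. The LYL1 upstream site passed in all 3 libraries at -log10 q of 2 and 5, with a fold of 6 and among the 973 highest. No paired analysis was possible because no result comes from a test. The unknown depth limits what an absent peak shows.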
